A study of Homo sapiens with 6 samples.

Results

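The 10 genes described here encode intermediate filament proteins and lamins: VIM, DES and NES, the keratin genes KRT8, KRT18, KRT10 and KRT1, and the lamin genes LMNA, LMNB1 and LMNB2. They were taken by gene symbol from the 60609 genes in the count files. All 10 had at least 1 read, and 9 were expressed enough to be tested.

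The RNA came from K562, an established human leukaemia cell line with erythroid features, and was sequenced as stranded poly(A) libraries. In every cell used, both copies of EP400, which encodes the ATPase of the TIP60 chromatin complex, carried a dTAG degron, a tag through which a small molecule triggers loss of the protein. The WT group carried a wild-type EP400 transgene at the AAVS1 safe harbour, and the Delta-TRRAP group carried there an EP400 transgene without the stretch that holds the TRRAP module of the complex. All 6 libraries were made from cells treated with 500 nM dTAGV-1, the degrader, for 24 h, so they compare the transgenes after loss of the tagged protein, with 3 libraries a group. Each group was 1 clone, so a difference between clones and a difference between genotypes cannot be told apart. The study calls the libraries of a group biological replicates, and the p-values below measure the spread between those libraries. The comparison asks which transcripts of the filament and lamina systems differed when EP400 could not hold TRRAP.

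Intermediate filaments are ropes of coiled-coil proteins that give cells and nuclei mechanical strength. Vimentin, desmin and nestin form or join cytoplasmic filaments in mesenchymal and blood cells, in muscle and in progenitor cells respectively, while keratins are obligate pairs of a type I and a type II chain. The lamins line the inside of the nuclear envelope: A-type lamins come from LMNA, and B-type lamins, which stay attached to the membrane through a lipid anchor, come from LMNB1 and LMNB2. Cells of the blood lineages are known for low LMNA relative to the B-type lamins, and erythroid cells for remodelling of both lamina and vimentin as they mature.

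Promoter windows of 250 bases before an annotated start were matched for 7 of the 10 genes in a table from RefSeq, build GRCh38.p14. No window was used here for DES, KRT1 and KRT18. The windows of VIM and LMNB2 are shown because VIM had the largest rise and LMNB2 was among the genes with the largest falls, and the LMNB1 stretch because it holds a CCAAT box and an E-box close together. In these lines capitals mark an SP1 box, spelled GGGCGG, wherever it occurs. Capitals also mark a box spelled CCAAT, whose reverse complement is what the LMNB1 line shows first. The E-box marked last in that line is spelled CACGTG. All were searched on both strands. The VIM window lies at chr10:17227991-17228240 on the plus strand, the LMNB2 window at chr19:2456960-2457209 on the minus strand and the LMNB1 stretch at chr5:126776998-126777019 on the plus strand.
VIM: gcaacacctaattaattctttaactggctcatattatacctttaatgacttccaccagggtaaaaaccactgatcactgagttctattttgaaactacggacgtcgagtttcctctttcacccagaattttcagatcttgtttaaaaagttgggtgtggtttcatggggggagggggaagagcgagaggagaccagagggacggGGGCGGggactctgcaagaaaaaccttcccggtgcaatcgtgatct
LMNB2: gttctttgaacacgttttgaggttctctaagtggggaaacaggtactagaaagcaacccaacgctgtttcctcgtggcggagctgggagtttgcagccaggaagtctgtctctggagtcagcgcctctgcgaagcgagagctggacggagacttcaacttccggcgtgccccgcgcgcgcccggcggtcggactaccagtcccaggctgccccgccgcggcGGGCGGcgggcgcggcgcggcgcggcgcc
LMNB1: ATTGGcccatggtagtCACGTG
The VIM window had a GC content of 46.0% and 1 SP1 box, and the LMNB2 window a GC content of 66.4% and 1 SP1 box. The LMNB1 stretch is 22 bases long and begins 138 bases before 1 of the annotated LMNB1 starts. Only that stretch is shown, since the window around it lies within the exon of another LMNB1 transcript, as does the stretch itself. That window also held 4 SP1 boxes, and the window of the other annotated LMNB1 start held 0 SP1, CCAAT or E-boxes. Of 35116 RefSeq windows of the same length, 42.6% held an SP1 box, 32% a CCAAT box and 6.34% an E-box. SP1 boxes numbered 1, 1 and 2 in the LMNA windows, 2 in the NES window and 0 in the KRT8 and KRT10 windows. A CCAAT box was in the first LMNA window and the KRT10 window. TATA, AP-1 and E2F sites were searched too, and the VIM, LMNB2 and LMNB1 windows held 0 of them. These matches describe letters in a window, and binding at them was not measured in the data used here. The motifs were chosen after the values were seen.

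The libraries held 35076835 to 42616061 counts in genes. EP400, whose count here adds the tagged copies and the transgene, had a normalized count of 5057 ± 277 in WT and 5574 ± 1238 in Delta-TRRAP libraries (mean ± SD, n = 3), a log2 fold change of 0.14 ± 0.11 with an edgeR adjusted p of 0.272, so its level does not check the labels. The share of counts in mitochondrial genes was 5.07 to 6.24% for Delta-TRRAP and 3.18 to 3.71% for WT libraries, and the part of this difference in the results below was not tested. All 12 erythroid markers fixed for the K562 label were expressed. Of these 3 were called higher and 1 lower, where 16.5% of all tested genes were called higher and 6.08% lower. By adjusted p 6 of the markers rose and 3 fell, against 58.3% of all tested genes in either direction. Those that fell were GATA1 (log2 fold change of -0.18), HBG1 (-0.41) and TFRC. The summed per-length level of the markers ranged from 2699 to 2931 among WT and from 3814 to 4093 among Delta-TRRAP libraries. ALAS2 and HBZ led this rise, with mean per-length levels of 58.2 and 119 in WT and 806 and 909 in Delta-TRRAP. Among the called markers, ALAS2, the first enzyme of haem synthesis in red cells, had a log2 fold change of 3.75 ± 0.06 (edgeR adjusted p of 8.705e-16), HBZ, an embryonic globin, one of 2.89 ± 0.09 (edgeR adjusted p of 6.403e-13), and TFRC, the transferrin receptor, one of -1.09 ± 0.06 (edgeR adjusted p of 1.411e-10). The part of these erythroid marker differences in the filament and lamin results was not tested. In these bulk libraries, fewer cells that express a gene and less RNA per cell cannot be told apart.

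Of the 9 tested genes, LMNB1, LMNB2 and DES were lower in Delta-TRRAP cells by more than 2-fold and VIM was higher by just under 2-fold. A gene was called when its edgeR adjusted p was 0.01 or less and its fold change was 2 or more, and "rose" or "fell" below means that the adjusted p was 0.01 or less at any fold. By the call, 3 members were lower and 0 higher, where 22.6% of the 19114 tested genes were called, 16.5% higher and 6.08% lower. The count of 0 higher comes from edgeR, and DESeq2 and limma-voom also gave 0, while 3 members were higher at an unadjusted p under 0.05 in edgeR. By adjusted p alone 2 members rose and 5 fell, against 58.3% of tested genes, and 8 members had no overlap between WT and Delta-TRRAP libraries, against 71.1% of tested genes. The median log2 fold change of the members was -0.25 and that of all tested genes 0.03. The member counts are small and were read only beside these shares.

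**Figure D1:**
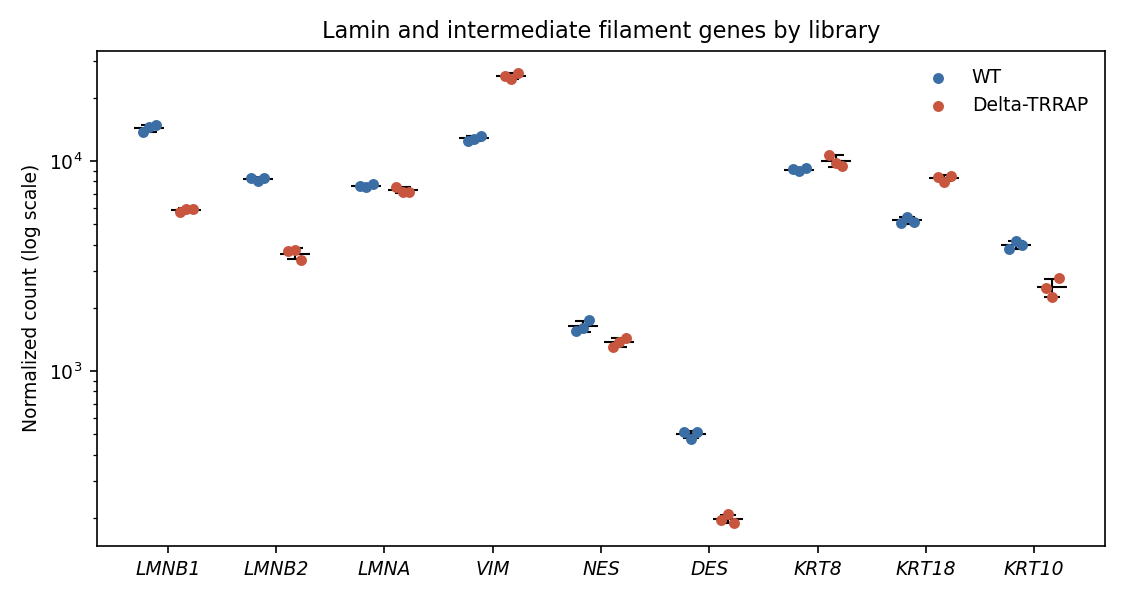
Normalized count of the 9 tested genes (log axis) in each library, WT in blue and Delta-TRRAP in red, with the group mean and SD as black bars. The groups separate for LMNB1, LMNB2, VIM and DES and overlap for LMNA.

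The B-type lamin transcripts fell together, and the A-type transcript was close to level. LMNB1 (ENSG00000113368.12, GRCh38 chromosome 5, 126776623 to 126837020, plus strand) had normalized counts of 13732, 14496 and 14859 in WT libraries and 5711, 5923 and 5943 in Delta-TRRAP libraries. Every WT library lay above every Delta-TRRAP library by more than 2-fold. The means were 14362 ± 575 and 5859 ± 128 (SD, n = 3), a log2 fold change of -1.29 ± 0.05 (SE) with an edgeR adjusted p of 9.082e-12. LMNB2 (ENSG00000176619.13, chromosome 19, 2427638 to 2456959, minus strand) is the second B-type gene and makes the other main B-type lamin of somatic cells. Its normalized counts were 8343, 8075 and 8301 in WT and 3724, 3768 and 3367 in Delta-TRRAP libraries, again without overlap. The log2 fold change was -1.19 ± 0.05 (edgeR adjusted p of 5.004e-11), with means of 8240 ± 144 and 3620 ± 220.

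LMNA (ENSG00000160789.20, chromosome 1, 156082573 to 156140081, plus strand) encodes lamins A and C by alternative splicing, and gene counts do not separate them. Its normalized counts were 7653, 7500 and 7760 in WT and 7541, 7155 and 7090 in Delta-TRRAP libraries, with the first Delta-TRRAP library inside the WT range. The log2 fold change was -0.07 ± 0.05 with a 95% interval of -0.18 to 0.03, and the edgeR adjusted p was 0.205. The sign of this small value turned under other scalings, to 0.06 with library size alone and 0.03 with upper quartile scaling, which raised the median of all genes by 0.14 and 0.10. The difference between LMNA and the B-type genes did not depend on scaling between libraries, since each library gives its own ratio.

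Per-length levels are counts per kilobase of exon, scaled to one total in every library. On this scale LMNB1 stood at 379 ± 19.1 in WT and 160 ± 4.33 in Delta-TRRAP, LMNB2 at 147 ± 2.58 and 66.6 ± 5.99, and LMNA at 90.0 ± 2.02 and 88.5 ± 5.00. LMNB1 was the highest lamin transcript in both groups by this per-length level, and 98.1% of tested genes lay below it in WT. With the longest transcript as length it remained above LMNA in WT but not in Delta-TRRAP libraries, where LMNA took 8.74% and LMNB1 7.34% of the members' summed level. The ratio of LMNA to LMNB1 plus LMNB2 was 0.177, 0.168 and 0.169 in WT and 0.409, 0.377 and 0.385 in Delta-TRRAP libraries. The level of the ratio depended on the length: with the longest transcript it was 0.357 in WT and 0.814 in Delta-TRRAP, and from counts alone 0.338 and 0.766. The difference in mean log2 ratio was 1.19 by union length, and a two-sided exact permutation test gave p = 0.1, the smallest that 3 against 3 libraries allow. LMNA made up 14.6 ± 0.335% of per-length lamin transcripts in WT and 28.1 ± 0.857% in Delta-TRRAP by union length, and 26.3 ± 0.499% and 44.9 ± 1.03% by longest transcript. The summed lamin level was 616 ± 21.5 in WT and 315 ± 13.4 in Delta-TRRAP.

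**Figure D2:**
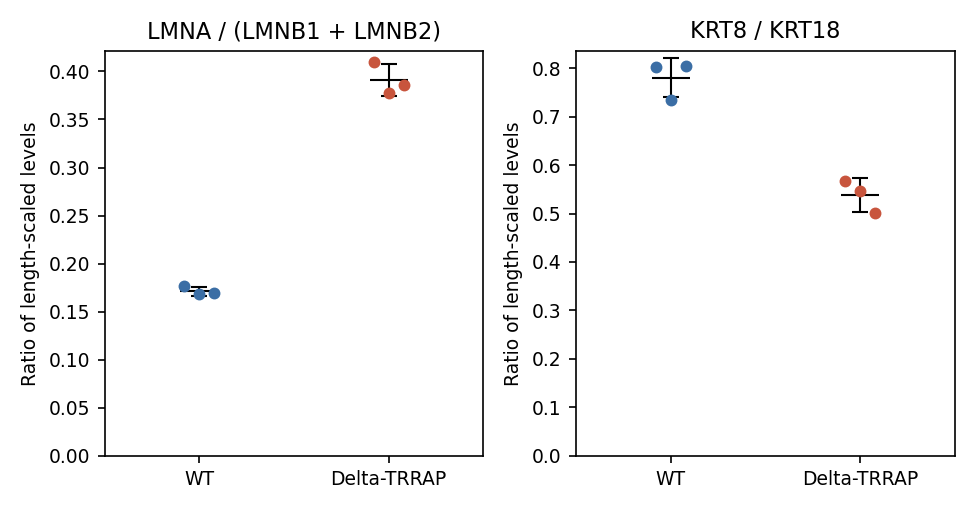
Ratios of per-length levels in each library (points) with mean and SD: LMNA over LMNB1 plus LMNB2 at left and KRT8 over KRT18 at right, both axes starting at 0. The lamin ratio lies at 0.168 to 0.177 in WT and at 0.377 to 0.409 in Delta-TRRAP, and the keratin ratio is lower in all 3 Delta-TRRAP libraries.

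Proteins that hold the lamina in the envelope and link it to the cytoskeleton were examined as a list of 19 genes, of which 18 were tested. By the call 3 were higher and 0 lower, where 16.5% of all tested genes were called higher and 6.08% lower. By adjusted p 5 rose and 7 fell, against 58.3% of all tested genes in either direction. The median log2 fold change was -0.10. The count of 0 lower was also 0 with DESeq2 and limma-voom, and 9 genes were lower at an unadjusted p under 0.05 in edgeR. LBR, the inner membrane receptor that binds B-type lamins, fell from 23818 to 13710 normalized counts, a log2 fold change of -0.80 ± 0.05 (edgeR adjusted p of 1.285e-09). TMPO, which encodes the lamina-associated polypeptides, fell from 19364 to 12529, a log2 fold change of -0.63 ± 0.05 (edgeR adjusted p of 1.93e-08). Emerin (EMD), which binds the A-type lamins, fell by 0.18 on the log2 scale (edgeR adjusted p of 0.00493). LBR, TMPO and EMD fell by less than 2-fold and were named after their values were seen.

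The bridge from lamina to cytoskeleton, the LINC complex, pairs SUN proteins with nesprins. SUN1 had a log2 fold change of 0.07 (edgeR adjusted p of 0.214) and SUN2 one of -0.12 (edgeR adjusted p of 0.053). SYNE1, encoding nesprin 1, was called higher from a low level, 66 counts over the WT and 301 over the Delta-TRRAP libraries, a log2 fold change of 2.19 ± 0.20 (edgeR adjusted p of 1.105e-07). SYNE2 and LMNTD2 were the other calls, with 17.7 and 16.3 normalized counts in WT. The LMNTD2 call, at a log2 fold change of 1.00, was lost or could not be made in 7 of 15 alternatives, DESeq2 among them. SYNE3, which encodes nesprin 3, the nesprin that binds plectin, fell by 0.82 on the log2 scale (edgeR adjusted p of 1.935e-04), the lowest value of the list. Together the 19 genes had a summed per-length level of 1412 to 1475 among WT and of 1106 to 1165 among Delta-TRRAP libraries. Of the 6 genes that attach or trim the lipid anchor of lamins or bind prelamin, 0 were called in edgeR, DESeq2 or limma-voom. In edgeR 22.6% of all tested genes were called. At an unadjusted p under 0.05, 1 of the 6 genes was higher and 3 were lower. By adjusted p NARF rose by 0.63 on the log2 scale, while FNTA fell by 0.51, ICMT by 0.50 and ZMPSTE24, the prelamin A protease, by 0.24.

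**Figure D3:**
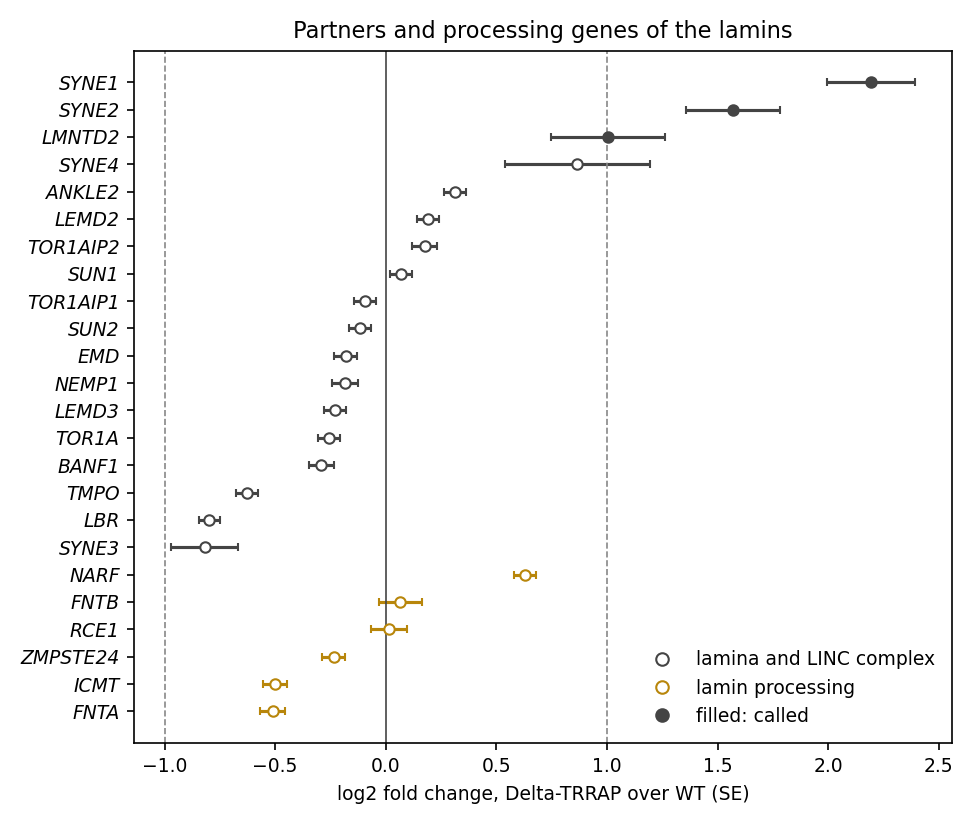
Log2 fold change (Delta-TRRAP over WT, bars SE) of 18 tested lamina and LINC complex genes and 6 lamin processing genes, with called genes filled and dashed lines at a fold of 2. Most genes lie between the lines, LBR and TMPO lie below 0, and SYNE1, SYNE2 and LMNTD2 lie on or past the upper line.

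VIM rose and DES and NES fell, so the type III and type VI filament transcripts moved in both directions. VIM (ENSG00000026025.16, chromosome 10, 17228241 to 17237593, plus strand) had normalized counts of 12431, 12814 and 13239 in WT and 25474, 24621 and 26204 in Delta-TRRAP libraries. The groups did not overlap, and the spread within a group was about 3.15% of the mean in WT. The log2 fold change was 0.99 ± 0.05 (edgeR adjusted p of 1.838e-10), a fold of 1.98 that lies just under the threshold for a call. It crossed that threshold with upper quartile scaling (1.09), with library size scaling (1.12) and without WT replicate 3 or Delta-TRRAP replicate 2 (1.02 in the latter). Relative to the median of all tested genes it was 0.96. On the opposite strand, VIM-AS1 overlaps the start of VIM and had a log2 fold change of -0.21 ± 0.09 (edgeR adjusted p of 0.0465), and the counting used strand. A second antisense gene inside VIM, AL133415.1, had 10 to 20 counts among WT and 25 to 31 among Delta-TRRAP libraries, and its part in the VIM counts was not tested.

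DES (ENSG00000175084.12, chromosome 2, 219418377 to 219426735, plus strand) encodes desmin, the muscle filament. Its normalized counts were 509.7, 476.8 and 513.8 in WT and 196.1, 207.6 and 189.3 in Delta-TRRAP libraries. All Delta-TRRAP libraries lay well below all WT libraries, and the log2 fold change was -1.34 ± 0.08 (edgeR adjusted p of 8.531e-10), close in size to that of LMNB1. NES (ENSG00000132688.11, chromosome 1, 156668763 to 156677407, minus strand) encodes nestin, a filament of neural and other progenitors. Its normalized counts were 1548, 1597 and 1747 in WT and 1302, 1377 and 1440 in Delta-TRRAP libraries. The groups did not overlap, but the gap between them was small, and the log2 fold change was -0.25 ± 0.06 (edgeR adjusted p of 0.00182). With library size scaling it was -0.12 (edgeR adjusted p of 0.0996), without WT replicate 3 it was -0.20 (edgeR adjusted p of 0.0124), and without Delta-TRRAP replicate 1 it was -0.22 (edgeR adjusted p of 0.0145).

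Markers of the cell types best known for these filaments were examined in the same libraries. Of 12 fibroblast and mesenchymal markers 10 had a count, 5 were tested, and LUM and PDGFRA were at 0 in every library. By the call 2 were higher and 1 lower, where 16.5% of all tested genes were called higher and 6.08% lower. PDGFRB was called higher with 5 counts over the WT and 28 over the Delta-TRRAP libraries. The summed per-length level ranged from 49.7 to 54.3 among WT and from 14.9 to 18.9 among Delta-TRRAP libraries. S100A4, a calcium-binding protein, made up most of the WT sum, and the sum of the other 11 markers went the other way, from 0.402 to 0.588 among WT to 8.69 to 9.29 among Delta-TRRAP libraries. Most of that Delta-TRRAP sum was COL1A2 alone, with mean per-length levels of 0.0143 in WT and 8.03 in Delta-TRRAP. COL1A2, a collagen chain, was called higher with 5 counts over the WT and 2622 over the Delta-TRRAP libraries, and S100A4 was called lower with a log2 fold change of -2.68 ± 0.11 (edgeR adjusted p of 1.394e-11). Of 12 muscle markers 10 had a count, 4 were tested, and the defining factors MYOD1 and MYF5 were at 0. By the call 1 was higher and 1 lower, to be read beside the same shares. The summed level ranged from 10.8 to 12.1 among WT and from 5.18 to 6.04 among Delta-TRRAP libraries. CNN1, a smooth muscle actin-binding protein, made up most of the WT sum, and without it the sum was higher in Delta-TRRAP libraries, 1.55 to 1.88 among WT against 3.00 to 3.32. CNN1 was called lower, as DES was, from 285 to 70.1 normalized counts, and MYLK, the myosin light chain kinase, was called higher, from 44.2 to 251. Of 10 neural progenitor markers 7 had a count, SOX2, OLIG2 and HES5 were at 0, and the summed level ranged from 2.90 to 3.14 among WT and from 2.16 to 2.27 among Delta-TRRAP libraries. PAX6, a transcription factor of neural and eye progenitors, made up most of this sum, with mean per-length levels of 2.90 in WT and 1.85 in Delta-TRRAP, and the other markers summed to 0.0768 to 0.221 among WT and 0.281 to 0.436 among Delta-TRRAP libraries. None of the 2 neural markers tested was called by edgeR, DESeq2 or limma-voom, and 1 was lower at an unadjusted p under 0.05. The part of these marker differences in the VIM, DES and NES values was not tested.

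The simple epithelial keratin KRT18 rose, its partner KRT8 did not pass the test, and the epidermal keratin KRT10 fell. KRT18 (ENSG00000111057.11, chromosome 12, 52948871 to 52952906, plus strand), a type I chain, had normalized counts of 5096, 5432 and 5131 in WT and 8430, 7993 and 8496 in Delta-TRRAP libraries. All Delta-TRRAP libraries were above all WT libraries, with a log2 fold change of 0.67 ± 0.05 (edgeR adjusted p of 1.645e-08), a fold of 1.59. KRT8 (ENSG00000170421.12, chromosome 12, 52897187 to 52949954, minus strand) is the type II chain that KRT18 pairs with. Its normalized counts were 9166, 8934 and 9249 in WT and 10733, 9808 and 9532 in Delta-TRRAP libraries. The groups did not overlap but lay close, and the log2 fold change was 0.14 ± 0.05 with a 95% interval of 0.02 to 0.25 and an edgeR adjusted p of 0.036. Under library size scaling KRT8 passed, with 0.27 (edgeR adjusted p of 4.653e-04).

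KRT10 (ENSG00000186395.8, chromosome 17, 40818117 to 40822614, minus strand) is the type I keratin of differentiating epidermis. It had normalized counts of 3812, 4174 and 3981 in WT and 2488, 2263 and 2762 in Delta-TRRAP libraries. Its groups did not overlap, and the log2 fold change was -0.67 ± 0.07 (edgeR adjusted p of 2.976e-07), a fold of 0.627. TMEM99, on the opposite strand of KRT10, had a log2 fold change of 0.15 ± 0.07 (edgeR adjusted p of 0.0733). KRT1 (ENSG00000167768.4, chromosome 12, 52674736 to 52680407), the type II partner of KRT10 in epidermis, had 1 count in WT replicate 3 and 0 in the other libraries, and was not tested. The KRT10 transcript was therefore present without that of its epidermal partner at this depth, at per-length levels of 177 ± 9.20 in WT and 115 ± 8.30 in Delta-TRRAP.

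The ratio of KRT8 to KRT18 by per-length level was 0.802, 0.733 and 0.804 in WT and 0.568, 0.547 and 0.500 in Delta-TRRAP libraries. The difference in mean log2 ratio was -0.54, with an exact permutation p of 0.1, again the smallest possible. Which of the pair stood higher depended on the length used: with the longest transcript the ratio was 1.28 in WT and 0.881 in Delta-TRRAP, and with counts alone 1.75 and 1.21. Both genes have many processed pseudogenes, and reads that map to several places were discarded by the authors, so their levels are uncertain. The 50 KRT8 pseudogenes summed to 6.73 to 6.95% of the KRT8 count among WT and 6.55 to 7.84% among Delta-TRRAP libraries, and the 68 KRT18 pseudogenes to 1.67 to 1.75% and 1.48 to 1.65% of the KRT18 count. Adding them to the parent genes gave a difference in log2 ratio of -0.53. KRT8 and KRT18 also overlap each other on opposite strands.

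Over the 29 type I keratin genes, 14 of which had a count, the summed per-length level was 456 ± 18.2 in WT and 605 ± 20.2 in Delta-TRRAP. Over the 26 type II genes, 14 with a count, it was 128 ± 2.78 and 145 ± 12.3, so the type I sum was above the type II sum in both groups on the union length scale. This grouping was made after the values were seen. KRT19, a type I keratin that lacks most of the tail, rose from 2796 to 5127 normalized counts, a log2 fold change of 0.87 ± 0.05 (edgeR adjusted p of 6.719e-10). Of the 61 other cytoplasmic intermediate filament genes 32 had a count and 13 were tested, with a median log2 fold change of 0.54. By the call 5 were higher and 1 lower, where 16.5% of all tested genes were called higher and 6.08% lower. NEFH, the heavy neurofilament chain, was called lower from 1754 to 567 normalized counts, a log2 fold change of -1.63 ± 0.06 (edgeR adjusted p of 2.473e-12). SYNM, encoding synemin, which joins desmin and vimentin filaments, was called higher from 15.4 to 160, a log2 fold change of 3.38 ± 0.21 (edgeR adjusted p of 1.436e-09). The other calls, KRT79, KRT9, KRT27 and KRT222, had 2 to 16 counts over the WT libraries.

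Desmosomes and cytolinkers, which anchor keratins and vimentin, were examined as 23 genes, of which 19 were tested. By the call 7 were higher and 1 lower, where 16.5% of all tested genes were called higher and 6.08% lower. The genes called higher were low in WT apart from PKP2, plakophilin 2, which was called from 339 to 728 normalized counts, a log2 fold change of 1.10 ± 0.07 (edgeR adjusted p of 2.248e-09). The desmosomal cadherin gene DSG3 was called from 3.61 to 151 normalized counts, with a log2 fold change of 5.33 ± 0.26 (edgeR adjusted p of 8.809e-11). PERP, a desmosome-associated membrane protein gene, was called from 14.9 to 194, and DSG1 from 20.5 to 87.5. EPPK1, epiplakin, a keratin-binding cytolinker, was called lower from 452 ± 11.1 to 199 ± 50.6 normalized counts (SD). Its log2 fold change was -1.18 ± 0.12 (edgeR adjusted p of 6.207e-07). The plakin genes MACF1 and DST also spread widely among Delta-TRRAP libraries, at 12404 ± 3426 and 2391 ± 689, and the reason was not tested. By adjusted p 7 genes of the list rose and 6 fell, against 58.3% of all tested genes in either direction. PLEC, plectin, was among those that fell, from 5320 ± 413 to 3993 ± 489 normalized counts (SD), a log2 fold change of -0.41. The desmosomal gene DSG2 fell from 10645 to 7402 normalized counts (edgeR adjusted p of 5.465e-06). PKP3, another, fell from 1766 to 1309 (edgeR adjusted p of 4.954e-06). The summed per-length level of the list was 451 to 488 among WT and 381 to 454 among Delta-TRRAP libraries.

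Among 12 simple epithelial markers 11 had a count, 6 were tested and CLDN3 was at 0. By the call 2 were higher and 2 lower, where 16.5% of all tested genes were called higher and 6.08% lower. The summed per-length level was 402 to 424 among WT and 333 to 349 among Delta-TRRAP libraries. EPCAM, an epithelial adhesion protein, carried the lower sum, and the other 11 markers, KRT19 among them, summed to 135 to 140 among WT and 235 to 252 among Delta-TRRAP libraries. KRT19, itself a keratin given above, made up most of that sum, with mean per-length levels of 115 in WT and 218 in Delta-TRRAP. ELF3 and ESRP2 were called higher, with 5 and 1 counts over the WT and 84 and 31 over the Delta-TRRAP libraries. EPCAM was called lower from 6994 to 2399 normalized counts, a log2 fold change of -1.54 ± 0.06 (edgeR adjusted p of 3.388e-12), and CLDN7, a tight junction claudin, was called lower from 189 to 94.2, a fold at the threshold, and lost its call in 8 of 15 alternatives, limma-voom among them. Among 10 keratinocyte markers 6 had a count, 3 were tested, and KRT5, LOR, FLG and COL17A1 were at 0. The summed level ranged from 2.5 to 2.7 among WT and from 6.16 to 7.42 among Delta-TRRAP libraries. SFN, which was not called, made up most of the WT sum, with mean per-length levels of 2.44 in WT and 3.53 in Delta-TRRAP. DSG3, counted above with the desmosome genes, was the 1 call and went from 0.0622 to 2.69. Over all tested genes 16.5% were called higher. The part of these marker differences in the keratin values was not tested.

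**Figure D4:**
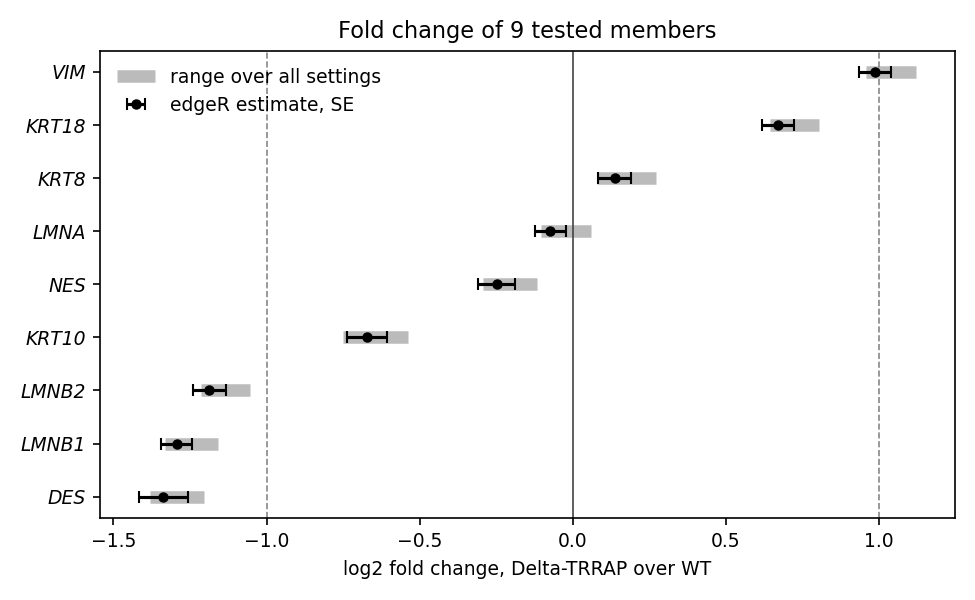
Log2 fold change (Delta-TRRAP over WT) of the 9 tested genes as points with SE, and the range over the alternative settings as grey bars, with dashed lines at a fold of 2. LMNB1, LMNB2 and DES lie past the lower line, VIM crosses the upper line in part of its range, and LMNA spans 0.

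Taken over all members the summed per-length level by union length was 1369 ± 44.5 in WT and 1361 ± 32.6 in Delta-TRRAP, while its make-up differed. Without length scaling the members took 0.153 to 0.159% of all counts among WT and 0.168 to 0.178% among Delta-TRRAP libraries, so the near-equal sum depended on the length scale. The shares below are of the per-length sum. VIM was 17.4 ± 0.211% of that sum in WT and 35.8 ± 0.438% in Delta-TRRAP, and LMNB1 27.7 ± 0.500% and 11.7 ± 0.434%. KRT18 went from 11.9 ± 0.405% to 19.7 ± 0.194%, and LMNA was 6.58 ± 0.17% and 6.5 ± 0.23%. In WT libraries LMNB1 was the first transcript of the group and VIM the second, and in Delta-TRRAP libraries VIM was the first and KRT18 the second. With the longest transcript as length, VIM was 23.0% and 41.5% and LMNB1 19.8% and 7.34%, so the first place in WT depended on the length while the direction of both changes did not. By union length the WT order of per-length levels was LMNB1, VIM at 238 ± 9.93, KRT10, KRT18 at 163 ± 6.40, LMNB2, KRT8 at 127 ± 2.76, LMNA, NES at 28.1 ± 2.06 and DES at 19.3 ± 0.802. The KRT10 and KRT18 libraries overlapped in that order, and the other neighbours did not. In Delta-TRRAP libraries VIM stood at 487 ± 7.86, KRT18 at 268 ± 7.37, KRT8 at 145 ± 12.3, NES at 24.4 ± 0.767 and DES at 7.88 ± 0.578.

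**Figure D5:**
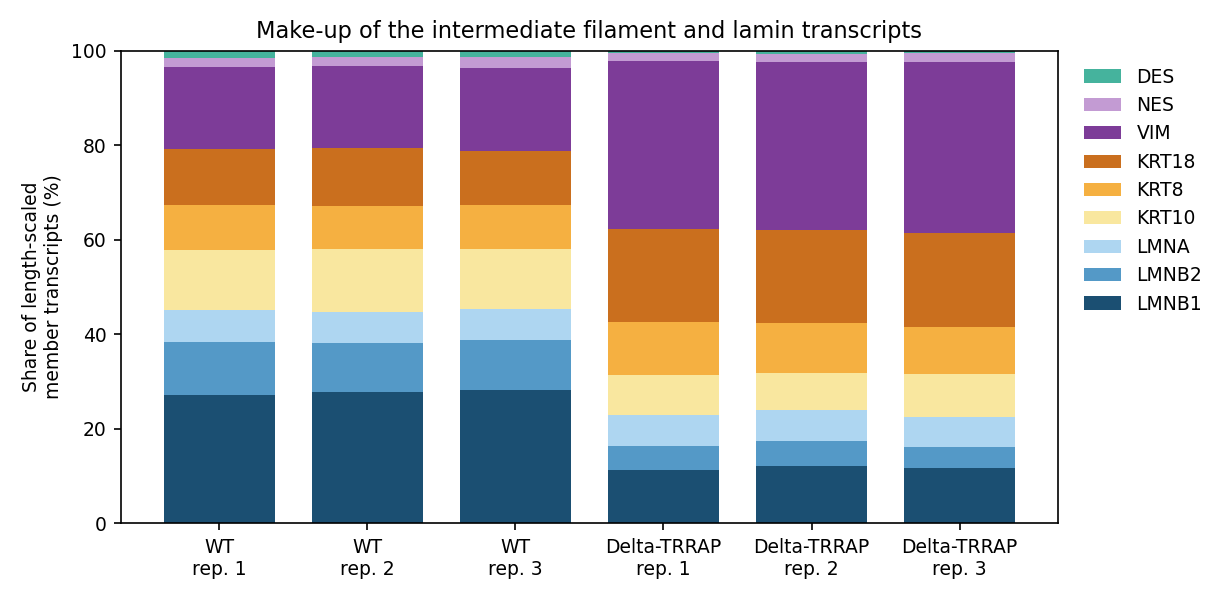
Share of each gene in the summed per-length level of the members (%, stacked to 100) in each of the 6 libraries. In Delta-TRRAP libraries the VIM and KRT18 segments are wider and the LMNB1 and LMNB2 segments narrower than in every WT library.

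Few expressed chromosomal neighbours of LMNB1, LMNB2, DES and VIM moved as far in the same direction as these genes did. Over all tested genes, which include ones with lower counts, 6.08% were called lower and 16.5% higher. The neighbour counts below were read only beside these shares. Among the 20 nearest tested genes with a mean count of 100 or more, LMNB1 had a neighbour median log2 fold change of 0.07 with 0 genes lower by as much, and DES had a median of 0.14 with 0 lower by as much. In the other direction, 4 neighbours of LMNB1 and 4 of DES were called higher, up to log2 fold changes of 1.92 and 1.98. LMNB2 had a neighbour median of -0.33 with 1 gene as low, and VIM one of -0.22 with 1 gene as high. KRT10 had a median of -0.10 with 3 as low, and KRT18 one of 0.05 with 2 as high. For the genes with small differences more neighbours lay as far in the same direction, 8 for NES, 9 for KRT8 and 12 for LMNA.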

How the data were processed

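Stranded poly(A) RNA-seq of 6 K562 libraries, 3 WT and 3 Delta-TRRAP, was analysed. The authors deposited raw counts per gene for each library, made by aligning reads to hg38 with STAR and counting uniquely mapped reads by strand with HTSeq 2.0.2 on GENCODE genes. Reads with several positions were discarded. A further table of the authors' own DESeq2 comparisons (fold changes and p-values) and a table of normalized values, which has 3 columns of another condition, were not used here.

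Counts were tested with edgeR 4.0.16 (limma 3.58.1, R 4.3.3), TMM scaling recomputed over the tested genes, and its quasi-likelihood F test, fitted to group alone. Of 34998 genes with a count, the 19114 with a mean normalized count of 5 or more were tested and p-values adjusted by Benjamini-Hochberg over all of them. Standard errors are the absolute log2 fold change divided by the square root of F. The procedure was tested on simulated data. Per-length levels used union exon lengths from GENCODE release 44. DESeq2 1.42.0, limma-voom, other scalings, filters, folds, a replicate block and leaving out each library were tried. Named list genes were those called with a mean count of 50 or more, at most 5 a list and direction, and every other list gene named in the text was chosen after its values were seen. The 10 members and the lists were chosen with earlier results of these data known. Depth was 35076835 to 42616061 counts a library.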

Additional observations from a re-analysis of the deposited data

How the results depend on the processing

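VIM, DES, KRT18, KRT10, LMNB1 and LMNB2 kept their direction and side of the adjusted p in all 14 alternatives. The genes called (4322) were 1964 (1291 higher, 673 lower) with a minimum mean count of 50 and 6750 (2562 lower) at a fold of 1.5. The members called were 6 at a fold of 1.5, 2 of them higher, and 1 was called higher (VIM) with upper quartile scaling, library size scaling or a minimum of 50, and 0 to 1 when 1 library was left out. NES lost the adjusted p with upper quartile scaling (-0.15), library size scaling (-0.12) and a minimum of 50 (-0.18), and ranged from -0.29 to -0.20 with 1 library left out, losing it also without WT replicate 3 or Delta-TRRAP replicate 1. KRT8 passed it with these settings (0.24, 0.27 and 0.21), and LMNA turned sign with them (0.028, 0.061 and 1.107e-04). Relative to the median of all tested genes, NES, KRT8 and LMNA were -0.28, 0.11 and -0.10 in the main fit. With library size scaling they were -0.28, 0.10 and -0.11 relative to that median. The cause was not tested. Calls in the lists moved to 10 without a filter and 2 with a minimum of 50 (other filament genes), 1 and 6 with a minimum of 50 and a fold of 1.5 (lamina), 1 at a fold of 1.5 (lamin processing), 5 with a minimum of 50 (cytolinkers), 5 without a filter (fibroblast), 1 with a minimum of 50 and 2 to 4 with 1 library left out (epithelial), and 2 without a filter and 1 at a fold of 1.5 (neural). Same-numbered libraries did not deviate together (correlations of -0.029 to -0.0095 over 19114 genes), and with a replicate block 4184 genes and 3 members were called and VIM was 0.99. DESeq2 called 3740 genes and limma-voom 4283. At 35076835 counts or more, KRT1 was at the limit of detection.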
